A study of Mus musculus with 3 samples.

Results

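The eicosanoid synthesis enzymes described here are 10 genes of the 33696 features counted in tdTomato-sorted cells of the mouse larynx, and each was found by its symbol. They are 4 lipoxygenases (Alox5, Alox12, Alox12e and Alox15), 2 cyclooxygenases (Ptgs1 and Ptgs2), 3 terminal prostaglandin synthases (Ptges, Ptgds and Hpgds) and 1 breakdown enzyme (Hpgd). The set was chosen with its levels in epithelial, stromal and immune cells of these libraries already seen, so those levels are given as a description and carry no test. Single-cell RNA sequencing had been run on 3 libraries of 1 condition, each from 10 pooled larynges of 5 male and 5 female Lrig1CreERT2/+; ROSA26 CAG-LSL-tdTomato/+ mice on a C57BL/6J background. All animals received 2 tamoxifen injections on consecutive days and were collected 24 h after recombination, and the mice's age was not given in the sources used here. CreERT2 is driven from 1 Lrig1 allele, so a cell enters the libraries only if Lrig1 was active around the injections and if its tdTomato signal passed a sort gate set with wild-type and ROSA26 reporter-only larynges. The pools hide differences between animals, and n = 3 libraries throughout.

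Eicosanoids are short-lived lipid signals made from arachidonic acid, which phospholipases release from membranes. Lipoxygenases add oxygen to it and open the routes to leukotrienes and to hydroxylated fatty acids, whereas cyclooxygenases convert it to prostaglandin H2, from which terminal synthases make prostaglandin E2 or prostaglandin D2. In airway and squamous epithelia these lipids act in barrier function, mucus secretion and inflammation, and 15-hydroxyprostaglandin dehydrogenase, the product of Hpgd, inactivates prostaglandins.

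In the GRCm39 annotation Alox12 (chr11:70132283-70146221), Alox12e (chr11:70206436-70213454) and Alox15 (chr11:70234970-70242858) lie on the minus strand and are the 3 protein-coding genes within 110.576 kb of chromosome 11. The other members are dispersed, with Alox5 (chr6:116387032-116438139) and Hpgds (chr6:65094001-65121983) on the minus strand of chromosome 6, and Ptgs1 (chr2:36120438-36142287, plus), Ptges (chr2:30779483-30820196, minus) and Ptgds (chr2:25352795-25362601, minus) on chromosome 2. Ptgs2 (chr1:149975194-149983978) and Hpgd (chr8:56747543-56774082) are on plus strands. None of the 45 pairs of members shared a stretch of 25 bases in the last 600 bases of their transcripts, where 3′ reads fall. Annotated transcripts on the opposite strand overlap Alox5, Alox12, Ptgs1, Ptgs2, Ptges, Ptgds and Hpgds. On the same strand, a pseudogene (Gm13400) overlaps Ptges and a transcript (Gm45540) overlaps Hpgd. Overlap was taken over whole gene spans, and whether reads are shared between such pairs was not tested.

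The 250 bases before the start site were taken from the RefSeq promoter table of GRCm38.p6 for 9 of the 10 members, without Alox15. They are printed for the neighbouring genes Alox12 (chr11:70255371-70255620) and Alox12e (chr11:70322531-70322780), whose spread over epithelial cells differed, and for Hpgds (chr6:65144731-65144980), which differed in both splits of the epithelium described further on. All 3 are given 5′ to 3′ on the minus strand, and capitals mark a GGGCGG match, a GC box, searched on both strands.
Alox12: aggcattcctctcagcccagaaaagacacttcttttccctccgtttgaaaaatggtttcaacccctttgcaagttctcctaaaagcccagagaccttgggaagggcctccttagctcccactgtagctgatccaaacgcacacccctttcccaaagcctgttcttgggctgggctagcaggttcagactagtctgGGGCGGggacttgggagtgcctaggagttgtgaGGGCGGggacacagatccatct
Alox12e: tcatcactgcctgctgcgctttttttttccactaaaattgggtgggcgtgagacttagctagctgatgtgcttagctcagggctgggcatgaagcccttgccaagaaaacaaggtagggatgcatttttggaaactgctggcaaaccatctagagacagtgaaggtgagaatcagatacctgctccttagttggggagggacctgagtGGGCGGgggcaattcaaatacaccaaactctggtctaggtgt
Hpgds: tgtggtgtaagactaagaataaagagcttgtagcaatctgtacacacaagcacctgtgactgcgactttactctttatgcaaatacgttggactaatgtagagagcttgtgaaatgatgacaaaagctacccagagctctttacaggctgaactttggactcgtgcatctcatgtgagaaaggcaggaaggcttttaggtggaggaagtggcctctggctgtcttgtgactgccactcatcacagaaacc

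Alox12 held the GC box at 2 places and Alox12e at 1, a match that 32.7% of the 32851 upstream sequences in the table also had. The window of Hpgds held neither this nor any of the other 3 motifs searched, which were TGANTCA (AP-1, in 6.75% of all windows), the STAT motif (TTC and GAA with any 4 bases between them, 5.85%) and TATAAA (12.4%). Elsewhere Ptges had a STAT motif match and Ptgds a TGANTCA match.

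The libraries held 18068, 10816 and 31646 barcodes, of which 13222, 7201 and 24119 were kept after limits on genes, UMIs (unique molecular identifiers, 1 per captured molecule) and mitochondrial share and after removal of 1030, 326 and 3495 likely doublets. Kept cells had a median of 9728 to 13765 UMIs per library, and pairs of libraries shared 22 to 102 kept barcodes. Cells were put in a class when at least 3 UMIs of its 6 markers were present and no other list exceeded 20% of that sum, which gave 17749 epithelial, 4823 fibroblast, 271 immune, 570 endothelial and 1620 muscle satellite cells, with median UMIs of 15432, 9838, 9086, 7199 and 6272. All 6 markers of its own list were detected in each of these classes, and in epithelial cells the immune list summed to 3.85 to 5.14 CPM (UMIs of a gene per 1000000 UMIs of the class in a library). The gate left 43.2% of the kept cells without a class. When Dcn, which many airway cells held, was dropped from the fibroblast list, epithelial cells numbered 28374 and 18.7% stayed without a class. Nkx2-1, an airway marker, was detected in 56.0% of the epithelial-led cells lost to the gate and in 32.1% of those it kept, so airway cells are under-represented in the epithelial class.

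Among epithelial cells, fibroblasts and immune cells, 3 of the 4 lipoxygenases had their highest level in epithelial cells and Alox5 had its highest in immune cells. Alox12, the 12S-lipoxygenase also known from platelets, stood at 24.3, 25.3 and 23.9 CPM in the epithelial cells of libraries 1, 2 and 3, a mean of 24.5 ± 0.761 (SD, n = 3). In fibroblasts it stood at 1.71, 2.41 and 2.30 CPM, and in immune cells at 1.36, 0 and 0 CPM from 3 UMIs in all. Epithelial libraries were closely grouped and lay above all fibroblast and immune values, an 11.4-fold ratio of means over fibroblasts. Endothelial cells also held Alox12, at 34.5, 9.14 and 10.9 CPM, with library 1 far above the others. The libraries had 495, 29 and 46 endothelial cells, of which 16.8%, 3.45% and 2.17% held an Alox12 UMI. The values of libraries 2 and 3 thus rest on very few cells. Pf4 or Ppbp, platelet genes, were present in 2 of the 85 endothelial cells with an Alox12 UMI.

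Alox12e, the epidermal-type 12-lipoxygenase, reached 23.0, 20.4 and 10.6 CPM in epithelial cells, a mean of 18.0 ± 6.55. Without Dcn in the fibroblast list, the wider epithelial class held 16.5, 15.6 and 7.35 CPM. Fibroblasts held 0.732, 0.862 and 0.321 CPM. No UMI was found in immune or endothelial cells, where a count of 0 over the pooled libraries allows up to 0.976 and 0.581 CPM. The epithelial mean of 18.0 CPM was 18.4-fold that immune limit. The level of library 3 and those of the wider class stand lower against it. Library 3 was the lowest of the epithelial libraries, and the lowest still lay above every fibroblast value.

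Alox15, the 12/15-lipoxygenase, ran beside it at 30.8, 23.3 and 16.1 CPM in epithelial cells (23.4 ± 7.34), with the libraries in the same order. Fibroblasts held 0.528, 1.38 and 0.482 CPM and immune cells 5.88, 4.41 and 2.45 CPM. The epithelial mean was 29.3-fold that of fibroblasts and 5.51-fold that of immune cells, the latter resting on 16 immune UMIs.

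Alox5, which with its activating protein Alox5ap starts leukotriene synthesis, was at 53.8, 70.5 and 41.6 CPM in immune cells (55.3 ± 14.5). Epithelial cells held 0.648, 1.12 and 0.778 CPM and fibroblasts 0.285, 0.345 and 0.0535 CPM. The immune mean was 65.1-fold the epithelial one, and the groups did not overlap. Epithelial cells, 39.8% of all kept cells, held 30.6% of the Alox5 UMIs, spread as 236 UMIs over 223 cells with at most 3 in a cell, while immune cells held 21.8%, cells without a class 26.7% and the 101 cells of the tuft gate 19.7%.

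Ptgs1, the constitutive cyclooxygenase, stood at 38.1, 39.9 and 33.3 CPM in epithelial cells (37.1 ± 3.40), at 38.1, 28.3 and 18.6 in fibroblasts (28.3 ± 9.73) and at 45.7, 72.7 and 41.6 in immune cells (53.3 ± 16.9). Epithelial and fibroblast libraries overlapped, and every immune library lay above every epithelial one. Endothelial cells were highest at 136, 241 and 214 CPM, and muscle satellite cells lowest at 3.26, 0.351 and 3.02 CPM.

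The inducible cyclooxygenase Ptgs2 was low and uneven. Epithelial cells held 3.21, 0.613 and 1.15 CPM, fibroblasts 7.28, 1.55 and 3.59, and immune cells 7.69, 66.1 and 26.9. Epithelial cells were below fibroblasts and below immune cells in each library, although the epithelial and fibroblast ranges overlapped, and library 1 was highest in both epithelial cells and fibroblasts. All 58 immune UMIs came from 6 of the 16 cells with neutrophil markers, at 204, 1198 and 357 CPM, and a single cell gave 30 of them. Of its 443 UMIs in epithelial cells, 1 cell held 65 and 33 cells held 50%.

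Ptges, the microsomal prostaglandin E synthase, was shared by epithelium and stroma. It was at 73.5, 73.9 and 112 CPM in epithelial cells (86.4 ± 22.0) and at 60.0, 49.8 and 79.2 CPM in fibroblasts (63.0 ± 15.0), and these ranges overlapped, although the epithelial value was the higher in each library. Immune, endothelial and muscle satellite cells had means of 9.74, 1.65 and 1.83 CPM.

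The prostaglandin D synthases were divided between classes. Hpgds, the hematopoietic form, was at 90.0, 236 and 227 CPM in immune cells (184 ± 81.8) and at 32.9, 45.8 and 43.6 CPM in epithelial cells (40.8 ± 6.89). Fibroblasts held 1.02, 2.07 and 1.45 CPM. Every immune library lay above every epithelial one, and every epithelial one above the fibroblasts. Of all Hpgds UMIs in kept cells, 76.3% were in epithelial cells and 2.57% in immune cells, which were 39.8% and 0.608% of the cells.

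Ptgds, the lipocalin-type form, was near absent from these classes. Epithelial cells held 89 UMIs and fibroblasts 107, with means of 0.385 ± 0.321 and 2.08 ± 1.77 CPM. The immune values were 0, 0 and 284 CPM, and the last came from 1 cell of library 3 with macrophage markers and 116 Ptgds UMIs. Of the 89 epithelial UMIs, 55 were in the 76 cells with thyroid markers (28.1 ± 19.4 CPM, n = 3). Muscle satellite cells were steady at 19.2, 15.8 and 21.2 CPM. The highest levels were in 9 of the 21 cells of the glial gate, which held 453 Ptgds UMIs. All 9 also held Dct, Mlana or Pmel, genes of melanocytes.

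Hpgd was at 199, 218 and 297 CPM in epithelial cells (238 ± 51.9), at 196, 154 and 220 CPM in immune cells (190 ± 33.3) and at 26.9, 15.3 and 27.1 CPM in fibroblasts (23.1 ± 6.76). The epithelial mean was 10.3-fold the fibroblast one, and epithelial and immune libraries overlapped.

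Counted together, 6 of the 10 members (Alox5, Alox12, Alox12e, Alox15, Hpgds and Hpgd) were higher in every epithelial than in every fibroblast library and none lower. Of all genes at 1 CPM or more in any of these sums, 35.1% separated upwards and 34.6% downwards in this way. Against immune cells, 4 members were higher (Alox12, Alox12e, Alox15 and Ptges) and 4 lower (Alox5, Ptgs1, Ptgs2 and Hpgds), beside 39.1% and 18.2% of all genes. The members were chosen on these levels, so nothing is read from the counts.

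**Figure D1:**
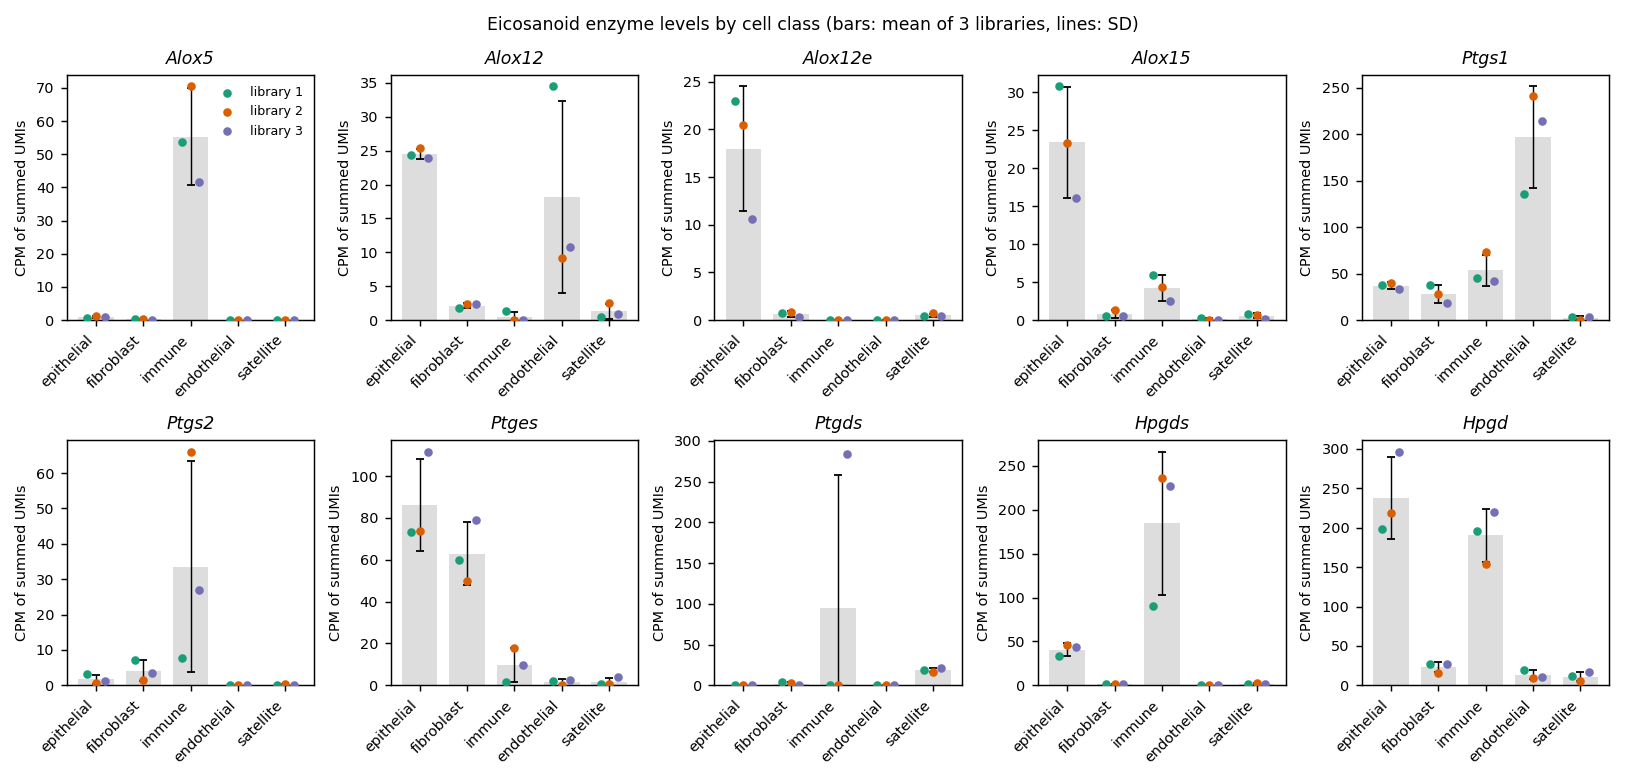
Level of each member (CPM of summed UMIs, vertical axis) in 5 cell classes, with 1 point per library, bars at the mean of 3 libraries and lines for the SD. Alox12e and Alox15 stand out only in epithelial cells, Alox5 only in immune cells of the classes plotted, Ptgs1 is highest in endothelial cells, and the immune bar of Ptgds rests on library 3.

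Shares of cells with a UMI were compared at equal depth. With every cell thinned to 5000 UMIs and shallower cells left out (2090 epithelial, 972 fibroblast, 79 immune and 517 muscle satellite cells), Hpgd was detected in 49.5 ± 5.40% of epithelial, 7.88 ± 1.55% of fibroblast, 41.4 ± 6.11% of immune and 4.13 ± 2.17% of muscle satellite cells. Unthinned, over all cells of each class, the means of the 3 libraries were 65.6 ± 4.66%, 11.8 ± 3.06%, 44.7 ± 4.30% and 6.07 ± 2.71%. Free RNA was not measured here, and muscle satellite cells, which held little of most members, served as the comparison. The fibroblast share of Hpgds (0.507 ± 0.331%, against 0.944 ± 0.315% in satellite cells) was no higher than that of satellite cells and is not read as expression. For Alox12e the shares were 0.134 ± 0.138% and 0.132 ± 0.228%, and at 2000 UMIs a cell they were 0.248 ± 0.135% and 0.0939 ± 0.163%, within the spread between libraries at both depths. Thinned epithelial shares were 8.69 ± 0.561% for Alox12, 3.69 ± 1.12% for Alox12e, 4.17 ± 1.19% for Alox15, 13.6 ± 2.21% for Hpgds, 16.6 ± 1.39% for Ptgs1 and 31.8 ± 6.82% for Ptges. For Ptgs1 the shares differed from the CPM values: 16.2%, 18.2% and 15.6% of epithelial cells overlapped with 13.4%, 25.9% and 25.8% of immune cells, and 13.4%, 9.25% and 7.46% of fibroblasts lay below every epithelial share.

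The balance of both routes was expressed as the UMIs of the 4 lipoxygenases in percent of these and of the cyclooxygenases and synthases together. It depends on how well each transcript is captured, so it is compared between classes only. Epithelial cells had 34.6% (95% Wilson interval 33.9 to 35.4), 30.4% (29.7 to 31.1) and 21.3% (20.8 to 21.7) in libraries 1, 2 and 3, a mean of 28.8 ± 6.83%. Fibroblasts had 2.87% (2.31 to 3.56), 5.61% (3.93 to 7.94) and 2.97% (2.31 to 3.82), a mean of 3.82 ± 1.55%, and every fibroblast library lay below every epithelial one. Immune cells had 29.6%, 16.0% and 6.95%, or 12.6% in library 3 without Ptgds, and overlapped with the epithelial range. Their lipoxygenase UMIs were mainly Alox5, whereas the epithelial ones were Alox12, Alox12e and Alox15. Intervals cover counting error only and are narrower than the spread between libraries. Without Dcn in the fibroblast list, the epithelial share was 23.8 ± 5.42%.

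**Figure D2:**
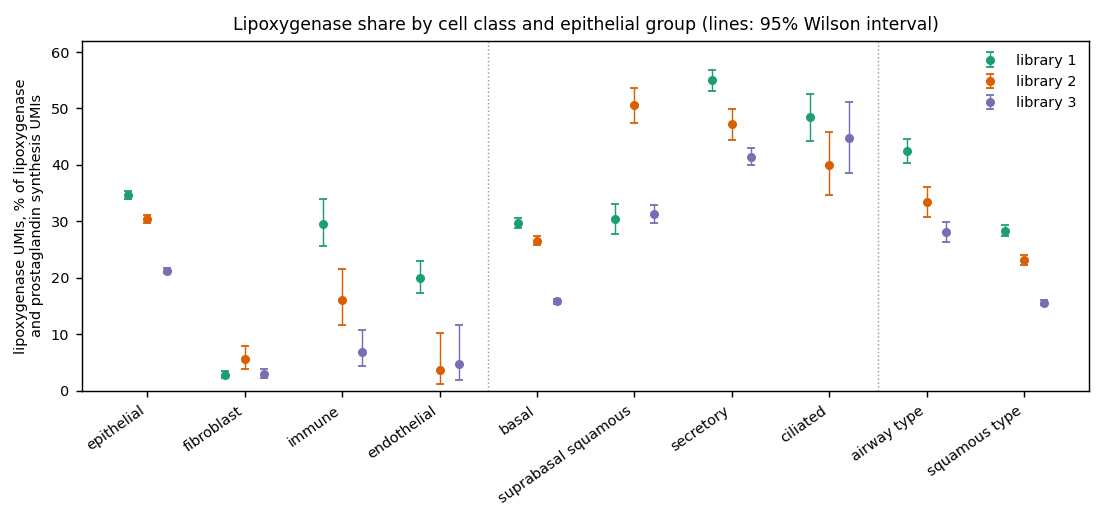
Lipoxygenase UMIs as a percent of lipoxygenase and prostaglandin synthesis UMIs (vertical axis), 1 point per library with its 95% Wilson interval, for classes (left), epithelial groups by marker level (middle) and airway-type and squamous-type cells (right). Secretory and ciliated cells lie at 40.1% to 55.0% and fibroblasts under 6%, and library 3 is the lowest in epithelial, basal, airway-type and squamous-type cells.

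Within the epithelium the members followed different cell groups. Groups were set by marker UMIs per 10000 with limits chosen after the data were seen. The groups compared comprised 11740 basal, 1232 suprabasal squamous, 1951 secretory, 1097 ciliated and 88 neuroendocrine cells. Another 1528 epithelial cells stayed outside all groups and are not compared below. They held 31.2, 24.0 and 37.9 CPM of Alox12e, and their lipoxygenase share was 29.1% to 53.4%. Among the groups compared, Alox15 had its highest mean in secretory cells at 66.8, 37.1 and 41.7 CPM (48.5 ± 16.0). Alox12 did so as well, at 35.2, 34.1 and 48.3 CPM (39.2 ± 7.92). Suprabasal squamous cells held 13.0, 49.1 and 18.2 CPM of Alox15, with library 2 far above the others, and in that library Alox15 was above the secretory value. Basal cells had 27.9, 21.2 and 10.6 CPM of Alox15, below the secretory value in each library.

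Ciliated cells lacked most of the prostaglandin route. Ptgs1 was at 1.91, 0.250 and 1.82 CPM there, against 46.0, 40.3 and 37.6 CPM in basal cells, and Ptges at a mean of 2.92 ± 1.54 against 96.9, 89.9 and 128 CPM. Alox12 was also low in ciliated cells (2.88 ± 1.63 CPM), whereas Alox15 (16.3 ± 1.99 CPM) and Hpgds (34.4 ± 9.54 CPM) were present. Among the groups compared, Hpgd was highest in basal cells at 269, 275 and 355 CPM and intermediate in secretory cells at 173, 184 and 286. It was low in suprabasal squamous (69.8 ± 22.5), neuroendocrine (42.1 ± 20.6) and ciliated cells (29.2 ± 9.49). Neuroendocrine cells held no UMI of Alox5, Alox12e, Alox15 or Ptgs2, where a count of 0 allows up to 1.45 CPM. The epithelial means of Alox5 (0.849 CPM) and Ptgs2 (1.66 CPM) were below or near that, so the 0 says little for these genes.

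The lipoxygenase share was 55.0%, 47.2% and 41.4% in secretory and 48.4%, 40.1% and 44.8% in ciliated cells, above the 29.8%, 26.6% and 15.9% of basal cells. In ciliated cells this came with low Ptgs1 and Ptges. In secretory cells it came with higher means of Alox12 and Alox15 than in basal cells and also with lower ones of Ptgs1 (22.0 ± 3.95 against 41.3 ± 4.28 CPM) and Ptges (69.3 ± 16.5 against 105 ± 20.4 CPM). Suprabasal squamous cells had a share of 30.4% to 50.6%, which overlapped with the secretory and ciliated ranges.

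**Figure D3:**
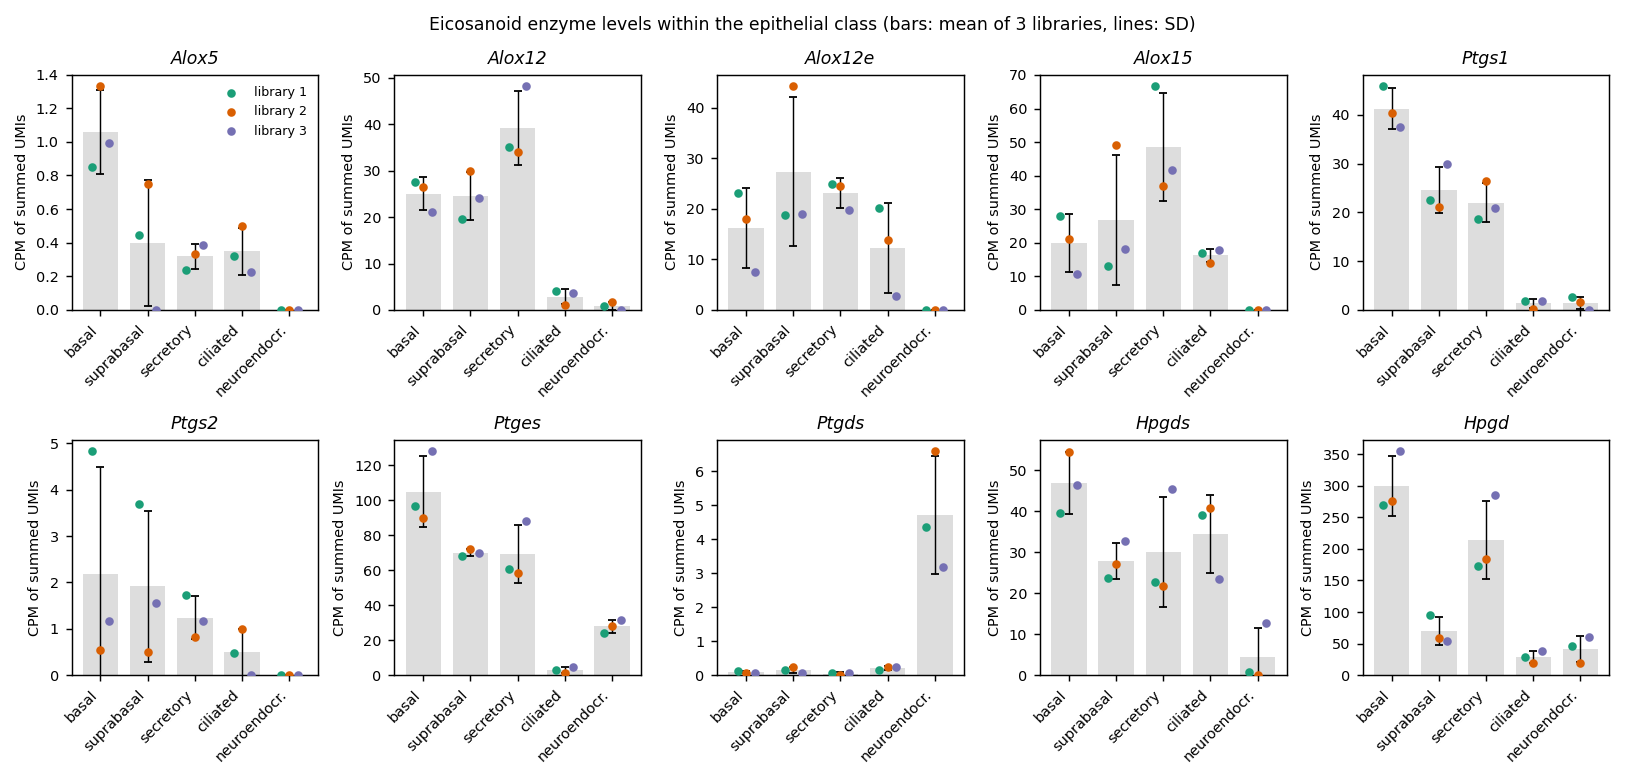
Level of each member (CPM of summed UMIs, vertical axis) in 5 groups of the epithelial class, with 1 point per library, bars at the mean of 3 libraries and lines for the SD. Ptgs1 and Ptges are near 0 in ciliated cells, where Alox15, Hpgds and Hpgd are not, and the means of Alox12 and Alox15 are highest in secretory cells.

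Alox12e and Alox15 were concentrated in few cells. Of 17749 epithelial cells, 109 (0.614%) held 50% of all epithelial Alox12e UMIs, with up to 82 UMIs in a cell, and 108 (0.608%) held 50% of those of Alox15, with up to 99. Alox12 needed 761 cells, Hpgds 1006 and Ptges 2632 for the same share, so these were spread far more widely. Among cells with at least 5000 UMIs, Alox15 was found in 51.7 ± 3.42% of the epithelial cells with Alox12e and in 4.19 ± 1.25% of those without. Alox12 went with both: Alox15 was found in 18.8 ± 4.82% of cells with Alox12 and in 4.17 ± 1.47% of those without. For Alox12e the shares were 17.9 ± 4.74% and 3.57 ± 1.40%. Hpgds was found in 47.8 ± 6.60% of cells with Alox12 and in 24.1 ± 3.93% of those without. Ptgs1 went the other way from Alox15, which was found in 3.98 ± 1.09% of cells with Ptgs1 and in 9.36 ± 3.08% of those without. These cells were not thinned to equal depth, and a deeper cell is more likely to show both genes. Cells of a library also share free RNA. The part of depth and free RNA in these differences was not tested, and the shares are given as a description.

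The levels in 4 gene sets of the epithelium, each read at 3 UMIs per 10000 or more, placed these cells further. The 2314 cells high in Sult1b1, Muc4 and Atp6v0a4 held 75.7 to 137 CPM of Alox15 (114 ± 33.1), 83.3 ± 29.7 of Alox12e, 82.1 ± 7.61 of Alox12 and 100 ± 22.2 of Hpgds, with Ptgs1 at 19.8 ± 6.02. Of these cells, 26.2% had a UMI of Alox15, 22.6% of Alox12e, 53.6% of Alox12 and 51.6% of Hpgds. The 629 cells high in Akr1c14, Cyp26b1 and Qrfp (340, 254 and 35 in libraries 1, 2 and 3) had Ptgs1 at 121, 107 and 103 CPM and 10 Alox15 UMIs in all. Hpgd was highest in the 2511 cells high in Grm8 and Clca3a2 (397 ± 71.4 CPM), and Ptgs2 in the 928 cells high in Hbegf, Atf3 and Fosl1, early-response genes (21.7, 3.29 and 10.1 CPM). These sets and their limits were chosen with the data in view, and the pooling of libraries in a set does not make its cells replicates.

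Among the immune cells, the 184 with macrophage markers held 127, 278 and 349 CPM of Hpgds and 60.4, 59.7 and 34.9 CPM of Alox5. Hpgd was at 274, 182 and 310 CPM there, and Ptgs2 had no UMI. The 16 cells with neutrophil markers had the reverse for Hpgds and Ptgs2, with no UMI of Hpgds and the Ptgs2 values above. Alox5 was present in both and higher in the neutrophil-marked cells, at 252, 280 and 259 CPM. Libraries 1, 2 and 3 gave 9, 2 and 5 of these 16 cells, and the Alox5 values rest on 36 UMIs.

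The tuft gate (Trpm5, Pou2f3, Avil, Sh2d6, Gnat3 and Gng13) held 101 cells counted apart from the epithelial class. The 22 cells with 20 or more tuft UMIs had 464, 118 and 40.7 CPM of Alox5 in libraries 1, 2 and 3, and pooled they had 233 CPM of Alox5, 402 of Alox5ap and 389 of Ltc4s, the leukotriene C4 synthase. They also had 467 CPM of Hpgds, present in 20 of the 22, and 139 of Ptgs1, whereas Alox12e and Alox15 had no UMI. The 79 cells with 4 to 19 tuft UMIs had 5.02 CPM of Alox5. Libraries 1, 2 and 3 gave 10, 1 and 11 of the 22 cells, so the value of library 2 is that of 1 cell.

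Airway-type cells (at least 2 Nkx2-1 UMIs and no Tmprss11a) were compared with squamous-type cells (the converse), a split that the choice of the members did not use. The sums covered 627, 342 and 920 airway-type and 1655, 1625 and 4719 squamous-type cells, with median depths of 15739 to 21734 and 17174 to 20628 UMIs. Each library is a separate pool. Without a block, p-values here and below treat both sums of a library as independent and set a difference against the spread between pools. With the library as a block, they set it against how much the difference within a library varied between the 3 pools. Hpgds was at 15.4, 17.4 and 16.2 CPM in airway-type and 47.6, 55.8 and 54.8 CPM in squamous-type cells. The groups were far apart, and the difference was -1.72 ± 0.10 on the log2 scale (SE, edgeR quasi-likelihood test, adjusted p = 5.5e-05). Ptges fell likewise from 104, 98.3 and 133 CPM in squamous-type to 43.0, 39.4 and 69.1 CPM in airway-type cells (log2 -1.16 ± 0.22, adjusted p = 0.0054). Alox12 was at 15.0, 21.3 and 19.2 against 31.8, 28.4 and 25.2 CPM (log2 -0.65 ± 0.16, adjusted p = 0.015). Hpgd was at 143, 184 and 257 against 267, 279 and 347 CPM (log2 -0.63 ± 0.21, adjusted p = 0.049), and without Dcn in the fibroblast list it no longer passed (log2 -0.35 ± 0.19, adjusted p = 0.20).

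Thus 4 of the 9 members tested were lower in airway-type cells and none higher, where 14.9% of the 16015 genes tested were lower, 22% higher and 36.9% called in either direction. Without library 1, Hpgds alone still passed (log2 -1.77 ± 0.13, adjusted p = 0.0014), while Ptges, Alox12 and Hpgd had adjusted p = 0.060, 0.11 and 0.15. That fit called only 17.4% of all genes (4.62% lower and 12.8% higher), against 36.9% with all libraries. Without library 2, Hpgd did not pass (adjusted p = 0.18), and 24.9% of all genes were called (7.90% lower). Alox15 was at 35.8, 16.3 and 16.6 against 22.6, 14.3 and 8.18 CPM, higher in airway-type cells of each library with overlapping ranges (log2 0.61 ± 0.44, adjusted p = 0.32). With the library as a block, where 50.3% of all genes were called, it passed (log2 0.63 ± 0.15, adjusted p = 0.014), and without Dcn in the fibroblast list the difference was -0.01 ± 0.47 (adjusted p = 0.99). Alox12e, Ptgs1, Ptgs2 and Alox5 did not pass, with log2 values of 0.20 ± 0.41, 0.13 ± 0.13, -0.17 ± 0.76 and -0.57 ± 0.38. With the block alone, 4 members were lower in airway-type cells and 1 higher, beside 23.5% and 26.8% of all genes. Without Dcn in the list and with the block, 5 were lower and 1 higher, where 46.6% of all genes were called (21.9% lower and 24.6% higher). Alox12e was among the lower ones in that fit (log2 -0.34 ± 0.10, adjusted p = 0.038 in edgeR). Without Dcn in the list, Ptgs1 was higher in airway-type cells (log2 0.59 ± 0.12, adjusted p = 0.011). Ptgds was filtered out, with 2.98, 1.74 and 0.131 against 0.0326, 0.0593 and 0.0594 CPM from 53 and 8 UMIs. With no filter on low counts it was tested and was higher in airway-type cells (log2 4.69 ± 0.92, adjusted p = 0.0028 in edgeR). It was also higher without library 3 (5.49 ± 0.61, adjusted p = 0.0017 in edgeR). By marker group, mean Ptgds was 28.1 CPM in thyroid and 4.71 CPM in neuroendocrine cells. Secretory, ciliated and basal cells held means of 0.0477, 0.213 and 0.0927 CPM. The part of thyroid and neuroendocrine cells in the airway-type difference was not tested.

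**Figure D4:**
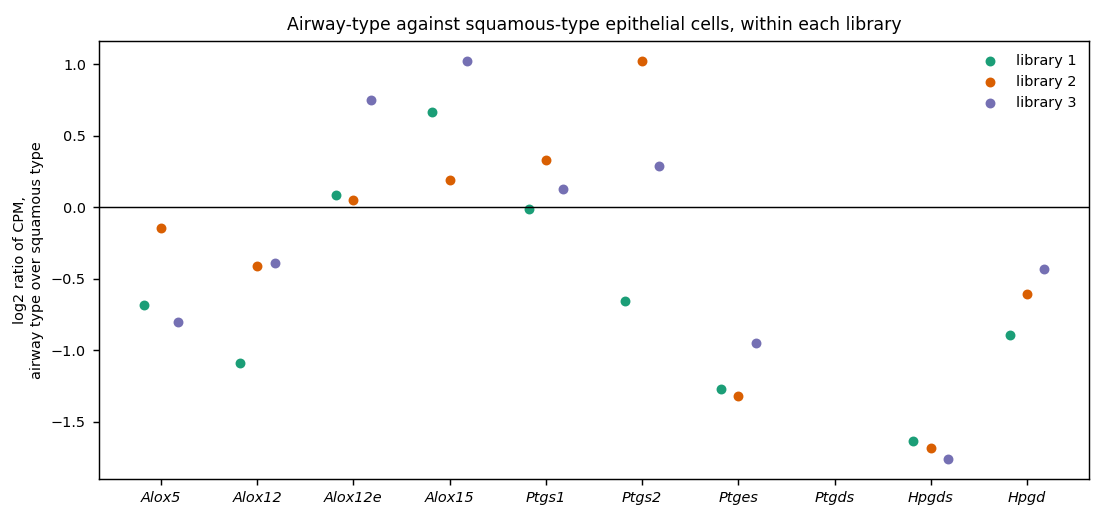
Log2 ratio of CPM between airway-type and squamous-type epithelial cells of the same library (vertical axis), 1 point per library, for the members with at least 20 UMIs in both sums. Hpgds and Ptges are below 0 in all 3 libraries by the widest margin, Alox12, Hpgd and Alox5 by less, and Alox15 and Alox12e are above 0 in all 3.

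Of 71 further genes of the eicosanoid pathway, 45 were measured in this split, of which 11 were higher and 9 lower in airway-type cells (44.4% called, beside 36.9% of all genes, of which 22% higher and 14.9% lower). The higher ones included Dpep2, a dipeptidase that converts leukotriene D4 (log2 5.39 ± 0.38), Ptgdr, a prostaglandin D2 receptor (3.20 ± 0.43), and Gstm2, a glutathione transferase (1.37 ± 0.15). The lower ones included the leukotriene B4 receptors Ltb4r1 (-3.98 ± 0.29) and Ltb4r2 (-3.52 ± 0.34) and Akr1c18, an aldo-keto reductase (-2.30 ± 0.30). Their adjusted p-values in edgeR ran from 8.8e-05 to 0.0012, and the median of the 45 genes was 0.19 on the log2 scale beside -0.00 over all genes tested.

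Epithelial cells with at least 1 Lrig1 UMI (2609, 2409 and 5670) were next compared with those without (2048, 1157 and 3856), Lrig1 being the gene whose activity had marked the cells. Hpgds was at 39.6, 53.2 and 51.9 CPM in Lrig1+ and 19.5, 24.7 and 25.6 CPM in Lrig1- cells. All Lrig1+ libraries lay above all Lrig1- ones, a log2 difference of 1.01 ± 0.16, but the adjusted p in edgeR without a block was 0.63. Alox12 was at 27.7, 27.2 and 26.8 against 17.4, 19.9 and 17.6 CPM (log2 0.53 ± 0.09, adjusted p = 0.63). In that fit 0 of 17501 genes (0%) and so 0 of the 10 members passed, and 694 genes had an unadjusted p below 0.05. DESeq2 called 69 genes, 2 members among them, Hpgds (log2 1.00 ± 0.18, adjusted p = 5.8e-05) and Alox12 (0.53 ± 0.11, adjusted p = 0.00096).

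The animals behind the Lrig1+ and Lrig1- sums of a library are the same, and with the library as a block 1970 genes passed, 11.3% of those tested (4.69% higher and 6.57% lower). In this fit 3 members were higher in Lrig1+ cells: Hpgds (log2 1.00 ± 0.04, adjusted p = 0.00076), Alox12 (0.53 ± 0.06, adjusted p = 0.0055) and Hpgd (0.35 ± 0.04, adjusted p = 0.0051). Hpgd was at 217, 230 and 324 against 162, 184 and 237 CPM. Ptgs2 was lower, at 1.05, 0.483 and 0.919 against 7.57, 0.987 and 1.66 CPM (log2 -1.74 ± 0.41, adjusted p = 0.045), with library 1 farthest apart. It did not pass with the block without Dcn in the list (log2 -1.47 ± 0.41, adjusted p = 0.083). Alox12e, Alox15, Alox5, Ptges, Ptgs1 and Ptgds did not pass, with log2 values from -1.16 ± 0.33 for Ptgds to 0.18 ± 0.05 for Ptgs1. The rise of Hpgds in Lrig1+ cells over all cells was known before this comparison, which is therefore not independent of it.

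Lrig1+ epithelial cells had median depths of 17027 to 20285 UMIs per library and Lrig1- cells of 9824 to 13649, and a deeper cell is more likely to show an Lrig1 UMI. Lrig1 was then called after thinning each cell to 5000 UMIs, and the block was kept. Hpgds was at log2 0.58 ± 0.05 (adjusted p = 0.0016 in edgeR), Alox12 at 0.27 ± 0.06 (0.024), Hpgd at 0.32 ± 0.04 (0.0045) and Ptgs1 at 0.27 ± 0.05 (0.020). Ptgs2 no longer passed (-0.82 ± 0.45, adjusted p = 0.27). In this fit 2379 of 17402 genes (13.7%) passed, 5.55% higher and 8.12% lower. With this call and without the block, 0 genes passed. The differences of Hpgds and Alox12 were smaller under this call, which leaves out cells under 5000 UMIs and moves cells with few Lrig1 UMIs to the Lrig1- side while the sums keep full depth. The part of each in the change was not tested.

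In fibroblasts with (1456) and without (3367) an Lrig1 UMI, 7 members were tested and 0 passed, as did 0 of 14155 genes with or without the block. By unadjusted p, 158 genes were below 0.05 without the block, and DESeq2 called 1. Ptges was at 70.4, 52.0 and 92.0 against 55.2, 48.3 and 70.5 CPM, higher in each library (log2 0.31 ± 0.08 with the block, adjusted p = 0.74). Hpgds was at 1.16, 3.35 and 1.32 against 0.948, 1.17 and 1.53 CPM, and these ranges overlapped. Whether the Lrig1 difference itself differed between epithelial cells and fibroblasts was tested in a joint edgeR fit with and without the block, and 0 of 17340 genes passed in either (728 and 300 at an unadjusted p under 0.05). For Hpgds this says little, since fibroblasts held only 64 of its UMIs.

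**Figure D5:**
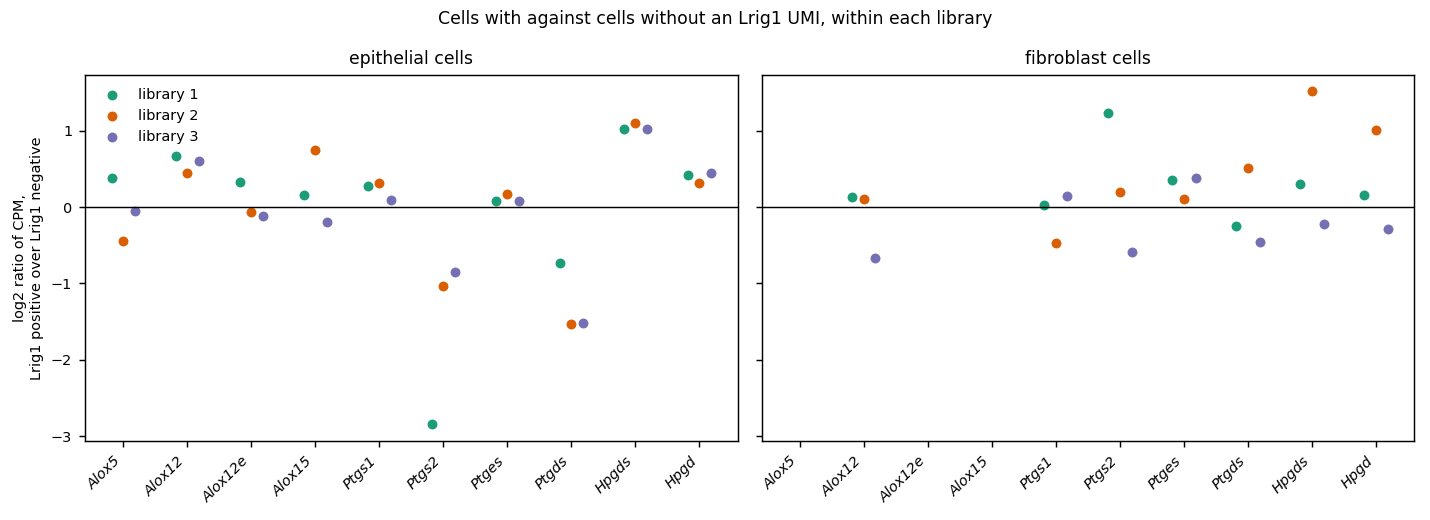
Log2 ratio of CPM between cells with and without an Lrig1 UMI in the same library (vertical axis), for epithelial cells (left) and fibroblasts (right), 1 point per library and members with at least 20 UMIs in both sums. In epithelial cells Hpgds lies near 1 and Ptgs2 and Ptgds below 0 in all 3 libraries, whereas in fibroblasts every plotted member but Ptges straddles 0.

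Of the 71 further pathway genes, 52 were measured in the epithelial Lrig1 split, and with the block 5 were higher and 3 lower in Lrig1+ cells (15.4% called, beside 11.3% of all genes, of which 4.69% higher and 6.57% lower). Without the block 0 of the 52 were called. Akr1c18 (log2 0.54 ± 0.04), Cyp4a12a, a fatty acid hydroxylase (0.87 ± 0.11), and Abcc4, a transporter that exports prostaglandins (0.23 ± 0.03), were higher. Ptges3, a cytosolic prostaglandin E synthase and co-chaperone (-0.26 ± 0.04), Ltb4r1 (-0.54 ± 0.10) and the prostaglandin F receptor Ptgfr (-0.95 ± 0.21) were lower. Their adjusted p-values in edgeR lay between 0.0019 and 0.034, and the median of the 52 genes was 0.04 beside -0.01 over all genes.

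Of 55 genes of the same pathway list measured in the comparison of classes, 22 were higher and 19 lower in epithelial cells than in fibroblasts, where 59.9% of 18253 genes were called in edgeR (29.8% higher and 30.1% lower). The median of the 55 was 0.22 on the log2 scale beside 0.03 over all genes. Mgst2, a glutathione transferase with leukotriene C4 synthase activity, was at 110, 101 and 119 CPM in epithelial cells and 4.31, 4.48 and 5.35 in fibroblasts (log2 4.52 ± 0.13, adjusted p = 9.3e-07). Akr1c18 (log2 5.26 ± 0.29) and Cyp4a12a (5.40 ± 0.54) were also higher. Ptgfr was at 190, 163 and 215 CPM in fibroblasts and at a mean of 1.09 ± 0.389 CPM in epithelial cells (log2 -7.45 ± 0.29), and the prostaglandin E2 receptor Ptger2 (-7.50 ± 0.29) and the chemerin receptor Cmklr1 (-9.05 ± 0.30) were lower in epithelial cells as well.

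Against immune cells, 17 of 55 genes were higher and 21 lower in epithelial cells, with 43.5% of 16929 genes called (25.1% higher and 18.4% lower) and a median of 0.10 beside 0.26 over all genes. Alox5ap was at 858, 875 and 626 CPM in immune and 1.08, 0.687 and 0.921 in epithelial cells (log2 -9.88 ± 0.32, adjusted p = 1.6e-07), on the same side as Alox5. Cyp4f18, which hydroxylates leukotriene B4 (-8.34 ± 0.23), and Cmklr1 (-8.97 ± 0.33) were lower too, and Gstm2 (4.39 ± 0.30), Mgst2 (3.85 ± 0.27) and Cyp2j6, an arachidonate epoxygenase (4.15 ± 0.38), higher.

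Over 37 sums of a library and a class, with the epithelial and immune classes split into groups, the level of each member was compared with those of 15565 genes by Pearson's r of log2(CPM + 1), as a description. Alox5 was most like Cyp4f18 (0.95), Snx20 (0.95) and Irag2 (0.93), and Alox12 like Mapk11 (0.90), Acsm1 (0.88) and Epas1 (0.86). Alox12e was most like Man1a2, Fut9 and Inava (each 0.90), and Alox15 like Cbr2 (0.90), Alox12e (0.89) and Fut9 (0.87), so the chromosomal neighbours Alox12e and Alox15 shared Fut9 among their nearest genes. Hpgds and Hpgd shared Zfp599 (0.90 and 0.87) and Sntg1 (0.85 and 0.84), with Gm15987 (0.87) and Mapkapk3 (0.85) as the other ones. Ptgs1 was nearest to Mylip (0.84), Rai14 (0.83) and Dock1 (0.82), and Ptges to Fat2 (0.86), Rab38 (0.86) and Efemp1 (0.84). Ptgs2 was nearest to Aspa (0.77), Crabp1 (0.74) and Fbln1 (0.73). The neutrophil-marked cells, where it was highest, were too few (9, 2 and 5) to enter the sums, so these values rest on low levels. Ptgds was nearest to Cxcl10 (0.70), Elovl2 (0.69) and Gtf2a1 (0.68). Its glial-gate cells (8, 3 and 10) were also too few, and 1 cell gave the 450 CPM of the library 3 macrophage sum. The sums share libraries and differ in depth, and no p is given.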

How the data were processed

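The authors aligned reads of 10x 3′ v4 libraries to GRCm39 (mm39) with Cell Ranger 8.0.1 and deposited unfiltered UMI counts per gene and called barcode, as whole numbers. The limits on cells and DoubletFinder calls of the study were not applied in the deposited counts, and its text was read here as having the gene and UMI limits swapped. For the values given here, a barcode needed 500 to 8000 genes, 1000 to 40000 UMIs and a mitochondrial share of no more than 8%. The doublet score was the share of simulated doublets among 50 neighbours on 30 components of 2000 variable genes, and the highest-scoring were removed at 0.4% per 1000 barcodes. The depth after these steps was 152414966, 108358949 and 279518442 UMIs per library.

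Counts were summed per library and class, given as CPM, and tested over all genes with edgeR 4.0.16 (TMM, filterByExpr, quasi-likelihood test, two-sided, Benjamini-Hochberg, threshold 0.05) in R 4.3.3, with DESeq2 1.42.0 as an alternative, the tool the study used on summed counts. The SE beside an edgeR log2 value was derived from the test, as its absolute size divided by the square root of F. Marker genes that set a split were left out of its test. A library is 1 pool of animals, which pairs the sums taken from it. Deviations of paired sums from their group means correlated at 0.557 to 0.816 in the epithelial Lrig1 split, 0.351 to 0.593 in the fibroblast one, 0.226 to 0.439 for airway-type and squamous-type cells, 0.233 to 0.318 for epithelial cells and fibroblasts and 0.0610 to 0.106 for epithelial and immune cells. Tested on simulated data, the fit without a block recovered 74% to 100% of 4-fold and 22% to 50% of 2-fold changes over the 5 comparisons. The simulation gave every gene the same dispersion (spread between sums) and did not pair the sums of a library. These shares therefore need not hold for the real sums. An immune sum of 47 to 173 cells per library limits what is detectable there.

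All members were named, and of the other pathway genes the 3 with the smallest adjusted p in each direction. For likeness, sums of at least 20 cells and members at 10 CPM or more in all 3 libraries of a group were used. The members and gene lists were chosen with earlier results of these data known. tdTomato and Cre were not among the features.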

Additional observations from a re-analysis of the deposited data

How the results depend on the processing

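The alternatives were the library as a replicate block, RLE size factors, DESeq2, no filter on low counts, each library left out, no doublet removal, a stricter gate (6 UMIs and 10%) and all barcodes. Added after seeing the data were a fibroblast list without Dcn, an Lrig1 call at 5000 UMIs, only cells of at least 5000 UMIs and the interaction fit. Of the summary results, 137 values under alternatives stayed on the same side, 3 moved and 10 became called. Leaving out 1 library gave 4145 to 6976 genes called between epithelial and immune cells (7371 with all), 2803 to 5724 between airway-type and squamous-type cells (5916 with all) and 12 to 20 pathway genes there, each lowest without library 1. In the epithelial Lrig1 split (0 called), the block gave 1970 genes, DESeq2 69, the list without Dcn with the block 1266 and the 5000-UMI call with the block 2379, and pathway genes called were 8, 8 and 11 under the replicate block and those same pairings. In fibroblasts (0 called) DESeq2 gave 1, the list without Dcn with the block 21 and the 5000-UMI call with the block 2. Signs turned for some members that were not called with all libraries and no alternative. Between airway-type and squamous-type cells these were Alox12e (log2 -0.39 without Dcn; -0.34 with the block too, adjusted p = 0.038 in edgeR), Alox15 (-0.010 and -0.017, but called higher with the block alone), Ptgs1 (-0.21, stricter gate, but called higher at 0.59 without Dcn) and Ptgs2 (0.024 with the replicate block, 0.65 with the stricter gate, -0.43 to 0.53 leaving out 1 library). In the epithelial Lrig1 split they were Alox5 (-0.30 to 0.076 leaving out 1 library), Alox12e (-0.11 to 0.14; -0.0085 with the stricter gate, -0.13 at 5000 UMIs, -0.18 with the block too), Alox15 (-0.015 to 0.33; -0.087 and -0.082 at 5000 UMIs) and Ptgds (0.36 and 0.27 at 5000 UMIs). In fibroblasts they were Alox12 (-0.34 to 0.11; 0.073 without doublet removal), Ptgs1 (-0.22 to 0.053), Ptgs2 (-0.36 to 1.03), Ptgds (-0.34 to 0.38; 0.0023 in DESeq2, 0.12 with the stricter gate) and Hpgd (-0.064 to 0.39; -0.10 without Dcn, -0.14 with the block too). The cause of these changes was not tested.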
